A study of Rattus norvegicus with 29 samples.

Results

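The comparison described here sets 2 awake groups of rats against 2 groups exposed to the volatile anaesthetic isoflurane. The members were chosen by sample label: the 10 arrays of rats given pain or fear conditioning while awake, minus the 10 arrays of rats given isoflurane alone or conditioning under isoflurane, with equal weight for each group. They are 20 of the 29 arrays of the series. Each array measured total RNA of the basolateral amygdala, and all 20 samples were taken 6 h after treatment.

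The awake groups were pain, a component of conditioning, and conditioning, with 5 arrays each. The isoflurane-exposed groups were isoflurane alone and conditioning under isoflurane, with 5 arrays each. A further 9 baseline arrays, which carry no time, were not part of the difference. They entered the normalization, the signal filter and the estimate of the spread, and served as a separate point of reference. The labels give no strain, sex, age, shock strength or anaesthetic dose. The titles abbreviate both conditioning groups, and the series' design text was used to read them. Every awake rat received a painful stimulus, whereas of the exposed rats only the 5 conditioned under isoflurane did, so that exposure and the number of rats given a stimulus cannot be told apart in the pooled comparison.

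Isoflurane is an inhaled general anaesthetic that enhances GABA-A receptors and two-pore potassium channels, and it blocks the formation of memory at doses below those needed for surgery. The basolateral amygdala holds glutamatergic projection neurons and GABA interneurons, and it stores the association between a neutral cue or place and a shock. New transcription and protein synthesis in the hours after training are part of the consolidation of that memory. Gene roles given below are general background from work in mammals and not results of these arrays.

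Values are log2 signals of probe sets, groups of short probes that report 1 transcript, after normalization across arrays. Differences are awake minus isoflurane-exposed on the log2 scale, so that a difference of 1 is a doubling. The tissue label was read against markers of projection neurons, which passed the signal filter. Slc17a7, the vesicular glutamate transporter of cortical and amygdalar neurons, averaged 11.65 in awake and 11.84 in exposed arrays, and its second probe set 9.025 in awake and 9.283 in exposed arrays. Nrgn, a postsynaptic calmodulin-binding protein of these neurons, averaged 12.51 in awake and 12.65 in exposed arrays. The striatal marker Penk passed the filter too, at 11.95 in awake and 12.26 in exposed arrays. Levels of different probe sets are not ranked here. A dissection may hold neighbouring tissue, and in a bulk sample fewer cells of a type and less RNA per cell cannot be told apart.

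The median of the deposited signal, before normalization, was 244.3 ± 18.3 in the awake arrays and 233.6 ± 6.41 in the exposed arrays (SD, n = 10 each; two-sided permutation test, p = 0.0525). Pain replicate 3 stood apart at 292.2, against at most 250 in the other 19 arrays compared. The ratio of 3' to 5' signal of the GAPDH control probes, a sign of RNA integrity, was 1.163 ± 0.0963 in awake and 1.207 ± 0.0755 in exposed arrays (SD, n = 10 each; permutation test, p = 0.275). That of the beta-actin control probes was 1.46 ± 0.21 in awake and 1.641 ± 0.334 in exposed arrays (SD, n = 10 each; permutation test, p = 0.163). The part of signal scale and RNA integrity in the results was not tested. Without pain replicate 3, 327 probe sets (3.43%) had an unadjusted p under 0.05 in the pooled comparison, against 488 with it. A labelling kit is named for the isoflurane and baseline arrays and for no other group, and the sample numbers of the isoflurane arrays come after all others. Kit and sample number cannot be told apart from the isoflurane group. Values without that group, or the mean of each group, are therefore given for genes described below whose difference moved by over 1.5 times. The labels do not state for every array that replicates came from separate animals, so p-values measure only the spread between these arrays.

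No single transcript separated awake from isoflurane-exposed amygdala at 6 h. Of 9520 probe sets tested with limma and Benjamini-Hochberg adjustment, 0 passed an adjusted p of 0.05 (0% called), and the lowest adjusted p was 0.875. At an unadjusted p under 0.05 there were 488, beside 476 that 9520 tests would give by chance alone. Of these, 241 probe sets (2.53% of those tested) were higher and 247 (2.59%) lower in the awake arrays. No probe set (0%) had all 10 awake arrays on one side of all 10 exposed arrays.

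The intervals bounded the size of the awake minus isoflurane-exposed difference. The 95% confidence interval of the difference lay within ±0.5 for 8517 probe sets (89.5%) and within ±1 for 9446 (99.2%). The median half-width of these intervals was 0.2076, and their 95th percentile was 0.3889. The largest difference was that of Nfix, at 0.89, and 46 probe sets exceeded 0.5 in size. Effects in rarer transcripts could not be read, since 6346 probe sets with low signal were not tested.

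**Figure D1:**
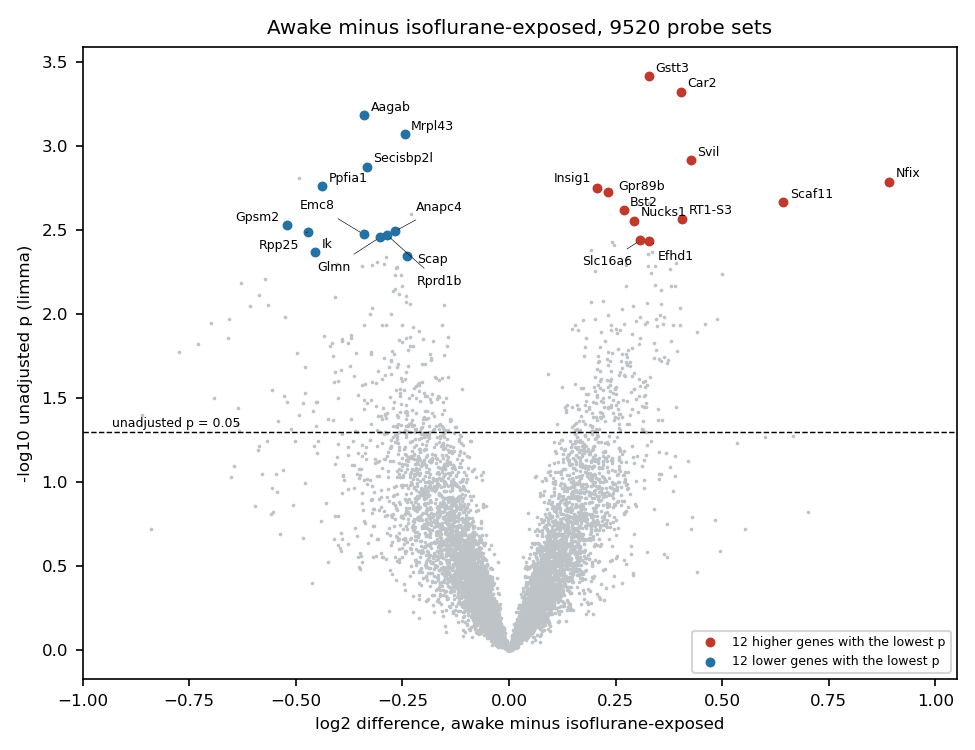
Log2 difference, awake minus isoflurane-exposed (horizontal axis), against the negative log10 of the unadjusted limma p (vertical axis) for 9520 probe sets, with the 12 higher and 12 lower genes of lowest p named. The differences of the named genes run between 0.21 and 0.89 among the higher genes and between -0.52 and -0.24 among the lower genes, and none passed the adjusted threshold.

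The genes with the lowest p-values are described next. They were picked as the extremes of all tests, all at an adjusted p of 0.875, and their values are a description of these arrays.

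Gstt3, a glutathione S-transferase of the theta class that conjugates reactive compounds, had the lowest p of all. Its awake arrays ran between 9.96 and 10.85 with a median of 10.15, and its exposed arrays between 9.67 and 10.03 with a median of 9.89. All 10 awake arrays lay above the exposed mean, and only the ends of both ranges overlapped. The means were 10.22 ± 0.263 in awake and 9.90 ± 0.125 in exposed arrays (SD, n = 10 each), a difference of 0.33 (SE 0.082), or 1.25-fold.

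Car2, carbonic anhydrase 2, which in brain is made mainly by oligodendrocytes and the choroid plexus, averaged 10.63 ± 0.25 in awake and 10.22 ± 0.205 in exposed arrays (SD, n = 10 each). Awake arrays lay between 10.24 and 11.04, and exposed arrays between 9.70 and 10.45, with all 10 awake arrays above the exposed mean. The difference was 0.40 (95% interval 0.193 to 0.612). A second Car2 probe set gave 0.205.

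Svil, which encodes the actin- and myosin-binding protein supervillin, ran between 7.45 and 8.17 in awake arrays and between 6.67 and 7.67 in exposed arrays. Its difference was 0.43 (SE 0.12), with the lowest exposed value in conditioning under isoflurane replicate 5. Nfix, a nuclear factor I transcription factor active in neural progenitors and glia, ran between 8.39 and 9.22 in awake arrays and between 5.74 and 8.59 in exposed arrays. Isoflurane replicate 3 alone held the value of 5.74, and the difference of 0.89 (SE 0.258) was 0.63 without that array. Scaf11, a serine- and arginine-rich protein of pre-mRNA splicing, differed by 0.64 (SE 0.192), whereas its other probe set gave -0.0634.

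Bst2, the interferon-induced membrane protein tetherin, averaged 8.13 ± 0.156 in awake and 7.86 ± 0.137 in exposed arrays (SD, n = 10 each), with 9 of 10 awake arrays above the exposed mean. RT1-S3, a rat class I histocompatibility gene, averaged 7.86 ± 0.246 in awake and 7.46 ± 0.351 in exposed arrays, and its 2 other probe sets gave 0.16 and 0.167. Class I genes are near-identical copies, so these probes may read several of them. The remaining higher genes were Gpr89b, a Golgi channel protein (0.23), Nucks1, a chromatin-bound DNA repair protein (0.29), Slc16a6, a monocarboxylate transporter (0.31), and Efhd1, a calcium-binding protein of mitochondria (0.33).

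Among the lower genes, Aagab, which helps assemble clathrin adaptor complexes, averaged 8.85 ± 0.261 in awake and 9.19 ± 0.238 in exposed arrays (SD, n = 10 each). Its difference was -0.34 (SE 0.0895), but a second probe set gave -0.0439, and without the isoflurane group the value was -0.16. Mrpl43, a protein of the large subunit of the mitochondrial ribosome, ran between 9.95 and 10.37 in awake arrays and between 10.19 and 10.72 in exposed arrays, a difference of -0.24 (SE 0.0659). Only 1 of 10 awake arrays lay above the exposed mean.

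Ppfia1, the scaffold protein liprin-alpha 1, differed by -0.44 and Gpsm2, a regulator of spindle orientation and G protein signalling, by -0.52. Rpp25, a protein subunit of ribonuclease P, differed by -0.47 and Ik, a spliceosome protein, by -0.45. The other 5 were Secisbp2l, of the family that binds selenoprotein mRNAs (-0.33), Anapc4 of the anaphase-promoting complex (-0.27), Emc8 of the endoplasmic reticulum membrane complex (-0.34), Rprd1b, which binds the tail of RNA polymerase II (-0.29), and Glmn, an inhibitor of cullin ubiquitin ligases (-0.30). In these 9 genes 1 or 2 of the 10 awake arrays lay above the exposed mean.

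**Figure D2:**
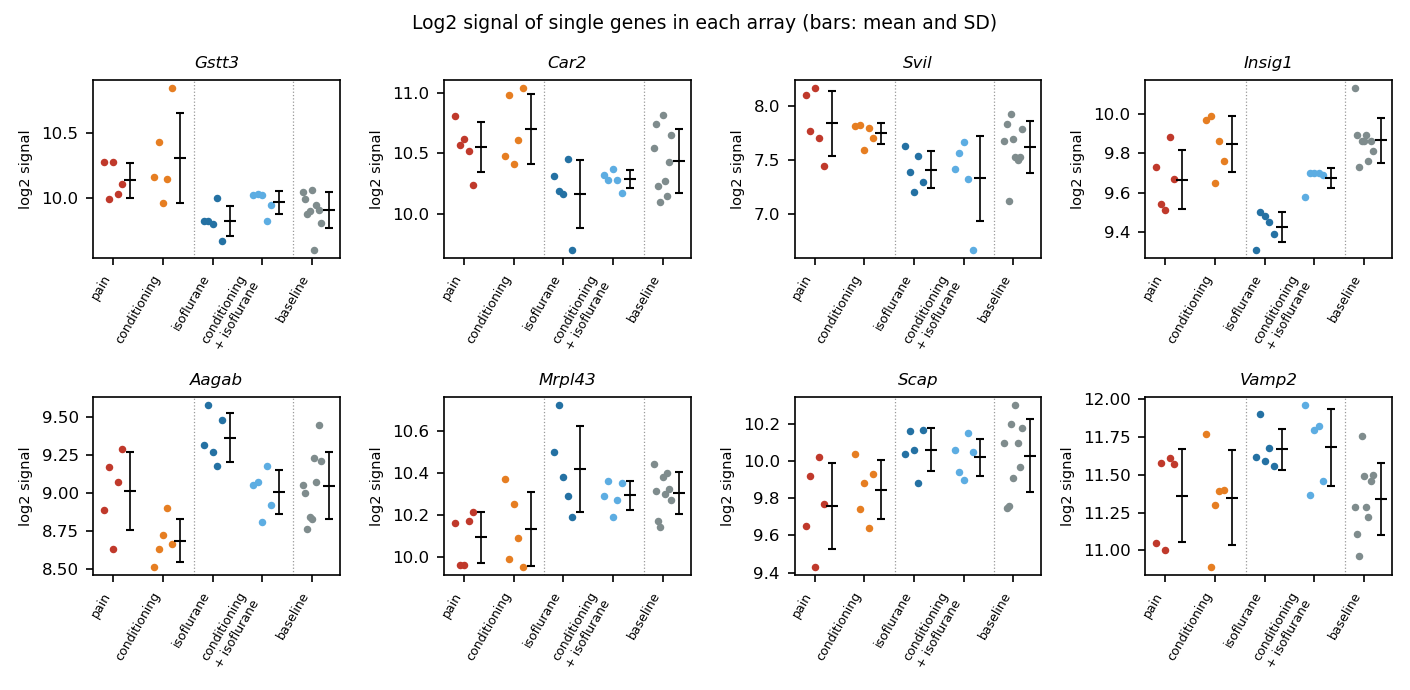
Log2 signal (vertical axis) of 8 genes in every array, by group (horizontal axis), with the mean and SD of each group as bars beside the points and dotted lines between awake, exposed and baseline arrays. In Gstt3, Car2 and Svil all 10 awake arrays lie above the exposed mean, in Scap none does, and in every gene the ranges overlap.

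A pair of the 24 genes belong to the control of cholesterol synthesis. In that pathway Scap carries the transcription factor SREBP out of the endoplasmic reticulum when sterols are low, and Insig1 holds Scap back when they are high. Insig1 was 9.73, 9.54, 9.51, 9.88 and 9.67 in the pain arrays and 9.97, 9.99, 9.65, 9.86 and 9.76 in the conditioning arrays. It was 9.31, 9.50, 9.48, 9.45 and 9.39 in the isoflurane arrays and 9.58, 9.70, 9.70, 9.70 and 9.69 in the arrays of conditioning under isoflurane. Pain minus isoflurane was 0.24, and conditioning minus conditioning under isoflurane was 0.17. The pooled difference was 0.21 (SE 0.0602), and without the isoflurane group it was 0.0811.

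Scap ran between 9.43 and 10.04 in awake arrays and between 9.88 and 10.17 in exposed arrays. None of the 10 awake arrays lay above the exposed mean, and all 10 exposed arrays lay above the awake mean. The difference was -0.24 (SE 0.0782), and -0.22 without the isoflurane group. Of the other genes of the pathway, Fasn, fatty acid synthase, differed by 0.28 (SE 0.0905), with 9.37 ± 0.195 in awake and 9.09 ± 0.14 in exposed arrays (SD, n = 10 each), and its other probe set gave 0.0132. Over the whole list, 18 of 31 probe sets were higher and the median was 0.0249. When arrays were centred on their medians, 13 of 31 were higher with a median of -0.0362. Over all probe sets tested that centring gave 31.3% higher and a median of -0.0585. None of the 31 passed the adjusted threshold.

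The direction of the 24 genes held without the isoflurane group, without the pain group and without pain replicate 3. Since the genes were picked as extremes of these same arrays, a kept direction was largely set by the choice. It is no independent support. Without the isoflurane group, the median size of their differences was 0.92 of the full value, and 2 genes lost more than the others, Insig1 at 0.0811 and Aagab at -0.16. Without the pain group it was 0.986 of the full value, and 5 genes lost more than the others: Gpr89b at 0.12, Efhd1 at 0.16, Secisbp2l at -0.14, Ppfia1 at -0.24 and Gpsm2 at -0.20. Just outside the choice of 12 stood Cdip1 (0.24), Tmie (0.25) and Gnpda1 (0.19) among higher genes and Ip6k2 (-0.31), Magi3 (-0.29) and Vamp2 (-0.32) among lower genes, with values close to the members just inside, Efhd1 (0.33) and Scap (-0.24).

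The baseline arrays did not enter the difference and were read as another level. In the 24 genes the baseline mean was nearer the awake mean in 12 and nearer the exposed mean in 12. It lay between both means in 20 of the 24. Insig1, Secisbp2l and Ik had a baseline beyond the awake mean, and Anapc4 a baseline beyond the exposed mean. Over the 488 probe sets at an unadjusted p under 0.05, the baseline was nearer the exposed mean in 299 and nearer the awake mean in 189. Among the 247 lower probe sets these counts were 162 and 85. The baseline arrays share the named labelling kit with the isoflurane arrays.

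The pooled comparison is the mean of 2 components that use separate arrays. The first is conditioning minus conditioning under isoflurane, in which every rat was conditioned. The second is pain minus isoflurane, in which stimulus, anaesthetic, the naming of a labelling kit and sample number all differ. Rat numbers run from 9 to 13 in pain, 24 to 31 in conditioning and 22 to 32 in conditioning under isoflurane. None is given for isoflurane. A difference that goes with wakefulness in both settings would be read in both components.

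The differences of the components were nearly uncorrelated across probe sets. Neither had a probe set past the adjusted threshold (0% in each), with lowest adjusted p-values of 0.999 for conditioning and 0.45 for pain. At an unadjusted p under 0.05, conditioning minus conditioning under isoflurane had 181 higher (1.9%) and 170 lower (1.79%) probe sets. Pain minus isoflurane had 263 higher (2.76%) and 332 lower (3.49%). Across the 9520 probe sets the correlation between the components was 0.0315 (Pearson) and 0.0629 (Spearman), and 52.5% had the same sign. Probe sets are not independent replicates, so this is a description without a test.

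Of the 351 probe sets at an unadjusted p under 0.05 in the conditioning component, 53.8% had the same sign in the pain component. Of the 595 in the pain component, 53.4% had the same sign in the conditioning component. Both were met with the same sign by 13 probe sets (0.137%), of which 9 were higher and 4 lower, and with opposite signs by 10. When the awake groups were matched the other way, conditioning minus isoflurane and pain minus conditioning under isoflurane had 46.1% of probe sets with the same sign and a correlation of -0.0687.

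**Figure D3:**
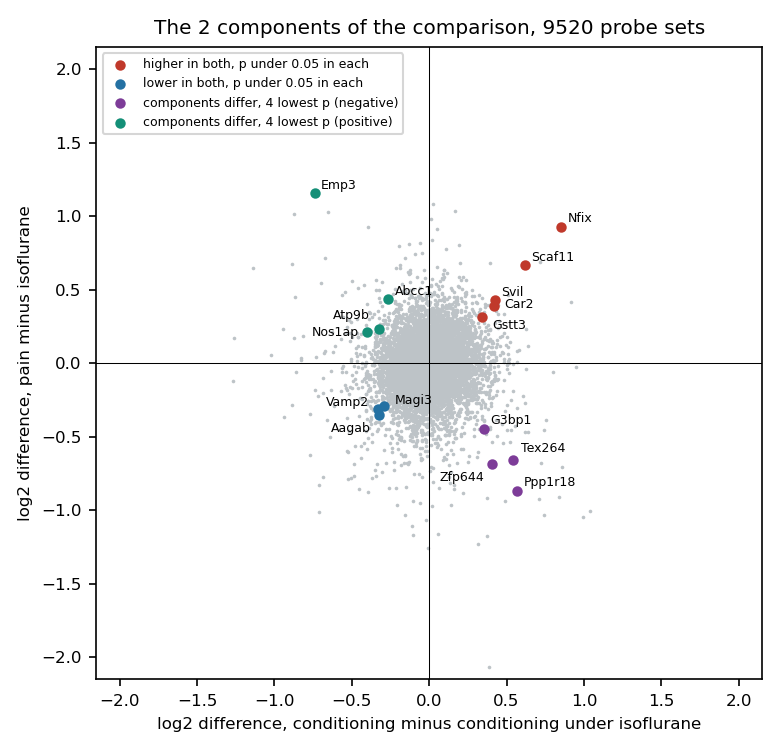
Log2 difference of conditioning minus conditioning under isoflurane (horizontal axis) against pain minus isoflurane (vertical axis) for 9520 probe sets, with named genes that met an unadjusted p under 0.05 in both with one sign and those with the lowest p for a difference between the components. The cloud is round, with a correlation of 0.0315.

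Among named genes, Gstt3, Car2, Svil, Nfix and Scaf11 had the lowest p of those higher in both components at an unadjusted p under 0.05. Bst2, Fasn and Sod3 met that too. Other genes had 1 sign in both without meeting it, such as RT1-S3 (0.48 for conditioning and 0.33 for pain). Gstt3 differed by 0.34 in the conditioning component and 0.31 in the pain component, and Car2 by 0.42 and 0.39 in that order of components. Aagab, Magi3 and Vamp2 were lower in both at that p. Magi3, a scaffold of cell junctions and synapses, differed by -0.29 in each, although its other probe set gave a pooled -0.0196.

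Vamp2, synaptobrevin 2, is the vesicle protein of the complex that fuses synaptic vesicles with the membrane. It ran between 10.89 and 11.77 with a median of 11.40 in awake arrays, and between 11.37 and 11.96 with a median of 11.65 in exposed arrays. Only 1 of 10 awake arrays was above the exposed mean, and the difference was -0.32 (SE 0.106). The baseline mean was 11.34, close to the awake mean of 11.36 and below the exposed mean of 11.68. Over the 32 probe sets of presynaptic release genes, 13 were higher and the median was -0.024, and Vamp1, its close relative, differed by 0.28 (SE 0.115), with 0.0123 and 0.135 in its 2 other probe sets. With single arrays left out the median of the release genes lay between -0.0557 without conditioning replicate 3 and 0.00988 without isoflurane replicate 5.

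A direct test of the difference between the components found 0 probe sets past the adjusted threshold (0%), with a lowest adjusted p of 0.083 by limma and 404 (4.24%) at an unadjusted p under 0.05. The gene with that lowest value was Zfp644, a zinc finger protein of the nucleus. It was 9.50, 9.16, 9.20, 9.42 and 9.38 in pain arrays and 9.58, 10.54, 9.89, 10.14 and 9.98 in isoflurane arrays. It was 10.06, 9.71, 9.71, 9.67 and 9.89 in conditioning arrays and 9.35, 9.36, 9.50, 9.50 and 9.27 in arrays of conditioning under isoflurane.

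The mean of Zfp644 was therefore lower in awake arrays of the pain component and higher in awake arrays of the conditioning component. Its pooled difference was only -0.14 (0.17 without the isoflurane group), because the component differences of 0.41 for conditioning and -0.69 for pain cancelled. The difference between components was -1.10 (SE 0.206). Without isoflurane replicate 1 it was -1.21, and over 28 alternatives its adjusted p by limma ran between 0.0112, in that case, and 0.272.

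Ppp1r18, which encodes the actin-capping protein phostensin, was 6.34, 6.89, 6.37, 7.86 and 6.32 in pain arrays and 7.68, 7.60, 7.37, 7.66 and 7.80 in isoflurane arrays. Pain replicate 4, at 7.86, lay above every isoflurane array, and the other 4 pain arrays lay below all of them. Ppp1r18 was between 7.59 and 7.93 in conditioning arrays and between 6.92 and 7.52 in conditioning under isoflurane. The difference between components was -1.44 (adjusted p = 0.177 by limma), and -1.71 with an adjusted p of 0.00067 without pain replicate 4, while over 27 alternatives that p ran up to 0.697. Without that array the pain component alone was -1.14 with an adjusted p of 0.0032, and over the 27 alternatives that p ran up to 0.999.

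Tex264, a receptor for the degradation of endoplasmic reticulum, and G3bp1, a core protein of stress granules, had the same opposed pattern. Tex264 differed by 0.54 in the conditioning component and -0.66 in the pain component, and G3bp1 by 0.35 and -0.45 in that order. The reverse pattern was held by Atp9b, a phospholipid flippase, Abcc1, an exporter of conjugated compounds, Emp3, a membrane glycoprotein, and Nos1ap, an adaptor of neuronal nitric oxide synthase. Atp9b differed by -0.33 in the conditioning component and 0.23 in the pain component.

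**Figure D4:**
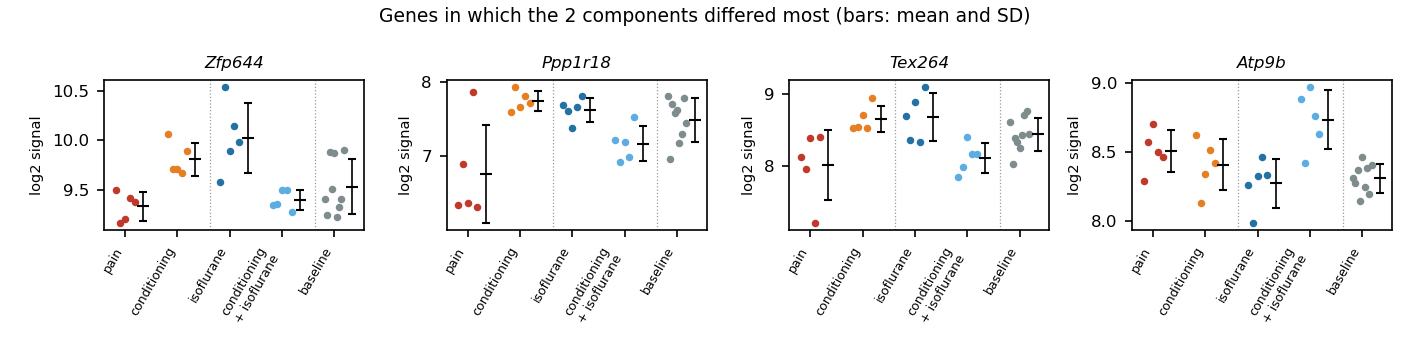
Log2 signal (vertical axis) of Zfp644, Ppp1r18, Tex264 and Atp9b in every array by group (horizontal axis), with group means and SD as bars. In Zfp644 the pain mean lies below the isoflurane mean and the conditioning mean above that of conditioning under isoflurane.

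Gene lists were read by how many of their probe sets were higher in awake arrays, beside 47.4% and a median of -0.00653 over all probe sets tested. When arrays were centred on their medians, 31.3% of all probe sets were higher, with a median of -0.0585. List values after median centring are to be read beside that level. None of the 30 lists had a member past the adjusted threshold. Immediate early genes are switched on by neurons within minutes of activity. Of 16 probe sets of activity-regulated transcription factors 6 were higher, with a median of -0.0581 and of -0.0988 when arrays were centred on their medians. Without the isoflurane group that median was 0.0775, and with single arrays left out it lay between -0.101 without pain replicate 5 and -0.0342 without isoflurane replicate 5.

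Fos, the classical marker of recent neuronal activity, ran between 6.71 and 8.70 with a median of 7.89 in awake arrays, and between 6.69 and 8.65 with a median of 8.16 in exposed arrays. The ranges were nearly the same, and the difference was -0.21 (95% interval -0.797 to 0.377). Arc, which controls glutamate receptor traffic at synapses, differed by -0.0855 (95% interval -0.355 to 0.184), and Egr1, a transcription factor needed for memory in rodents, by -0.0938 (95% interval -0.285 to 0.0976). Bdnf, the neurotrophin, differed by -0.23 (95% interval -0.608 to 0.144). Without the isoflurane group the differences were -0.0127 for Fos, -0.00201 for Arc and -0.0915 for Bdnf. With single arrays left out, Fos lay between -0.36 without conditioning under isoflurane replicate 5 and -0.0724 without pain replicate 1, Arc between -0.15 without pain replicate 5 and -0.0386 without pain replicate 1, and Bdnf reached -0.15 without pain replicate 3. Egr1 was -0.0459 without isoflurane replicate 5 and -0.20 without the pain group. Differences inside these intervals could not be told from 0 with these arrays.

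Among activity-regulated effectors 5 of 20 probe sets were higher. Homer1, a scaffold of glutamate receptors whose short form is induced by activity, differed by 0.28 (SE 0.132), but its 2 other probe sets gave -0.155 and -0.0136. Dusp6, a phosphatase that switches off ERK kinases, differed by -0.38 (SE 0.199), and by 0.0315 in its other probe set. Of 18 probe sets of glucocorticoid-responsive genes 11 were higher, with a median of 0.0169 that was -0.0432 when arrays were centred on their medians. Fkbp5, a chaperone of the glucocorticoid receptor, differed by 0.064 (95% interval -0.141 to 0.269), and Klf9, a transcription factor induced by glucocorticoids, by 0.0292 (95% interval -0.13 to 0.189). Without the isoflurane group these were 0.16 for Fkbp5 and 0.10 for Klf9, and Fkbp5 was -0.0022 without pain replicate 3.

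Receptors and channels on which isoflurane acts made up 2 of the lists. Of 18 probe sets of GABA-A receptor subunits and GABA machinery 6 were higher, with a median of -0.0311, which was -0.132 in the conditioning component and 0.051 in the pain component. With single arrays left out it lay between -0.0592 without conditioning replicate 3 and -0.0139 without conditioning replicate 1. Gabrb2, a beta subunit of the receptor, averaged 10.76 ± 0.188 in awake and 10.96 ± 0.162 in exposed arrays (SD, n = 10 each), a difference of -0.20 (SE 0.0798). Gabrg1, a gamma subunit, differed by 0.29 (SE 0.125). Of 10 probe sets in the list of glycine receptors and two-pore potassium channels, which also holds the channels Nalcn and Hcn2, 5 were higher. Kcnk6, the member of lowest p, differed by 0.29 (SE 0.121). Its means were 7.92 in pain, 7.62 in conditioning, 7.70 in isoflurane and 7.26 in conditioning under isoflurane. Kcnk2, a two-pore potassium channel opened by volatile anaesthetics, differed by -0.16 (95% interval -0.617 to 0.294), which was -0.0959 without pain replicate 3, -0.24 without conditioning under isoflurane replicate 5 and -0.42 without the pain group. Kcnk9, another channel of that family, was below the signal filter at 6.767.

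Chaperones of the endoplasmic reticulum formed the list with the most members at low p among those named here. They fold secreted and membrane proteins, and their genes are induced together when unfolded proteins build up. Of 25 probe sets 19 were higher in awake arrays and 6 were higher at an unadjusted p under 0.05, beside 2.53% over all probe sets. The median was 0.0731. When arrays were centred on their medians, 14 of 25 were higher, the median was 0.0102 and 0 met the unadjusted p with a higher level. Of all 9520 probe sets, 31.3% were then higher, with a median of -0.0585, and 126 met the unadjusted p with a higher level. Without pain replicate 3 the count of 6 was 2, and without conditioning replicate 3 it was 3.

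The promoters of the 3 chaperone genes of lowest p are shown because many genes of this class are known to share the endoplasmic reticulum stress element, CCAAT followed by any 9 bases and CCACG. They are the RefSeq windows of build GRCr8 that run from 250 bases before the start of the gene to 50 after it. Both parts of each match, on either strand, are in capitals. Hsp90b1 lies on the minus strand at chr7:23012244-23012543, Calr on the plus strand at chr19:40213117-40213416 and Hspa5 on the plus strand at chr3:38452766-38453065.
Hsp90b1: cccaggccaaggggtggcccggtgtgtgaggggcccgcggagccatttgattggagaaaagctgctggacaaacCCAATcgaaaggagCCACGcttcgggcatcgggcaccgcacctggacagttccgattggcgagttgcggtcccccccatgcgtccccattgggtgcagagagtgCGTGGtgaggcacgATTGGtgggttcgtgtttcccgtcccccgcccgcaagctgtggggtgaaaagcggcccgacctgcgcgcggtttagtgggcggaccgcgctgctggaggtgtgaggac
Calr: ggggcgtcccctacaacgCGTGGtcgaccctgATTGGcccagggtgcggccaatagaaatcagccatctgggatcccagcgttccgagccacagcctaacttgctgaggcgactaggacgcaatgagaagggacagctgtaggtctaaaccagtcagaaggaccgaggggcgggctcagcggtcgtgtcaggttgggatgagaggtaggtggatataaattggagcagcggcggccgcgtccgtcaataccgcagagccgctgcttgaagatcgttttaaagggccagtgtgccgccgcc
Hspa5: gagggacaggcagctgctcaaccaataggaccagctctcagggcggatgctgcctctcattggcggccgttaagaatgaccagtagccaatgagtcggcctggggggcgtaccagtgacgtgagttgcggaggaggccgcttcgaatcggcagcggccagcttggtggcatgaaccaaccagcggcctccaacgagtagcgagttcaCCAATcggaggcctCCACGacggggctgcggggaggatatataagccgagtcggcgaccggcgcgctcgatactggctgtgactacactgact

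Of the 21 list genes tested, 18 had a promoter in the table and 6 of these held a match, beside 22 of all 33469 promoters (0.0657%). Among the 5 with a promoter that were higher at an unadjusted p under 0.05, 3 held one. Canx, Xbp1 and Creld2 also held a match. Canx differed by 0.13, with 0.118 and 0.0161 in its other probe sets, Xbp1 by 0.0341 and Creld2 by -0.0333. A match describes these letters and does not show binding. The list holds genes of a class known to share the element, so these counts do not bear on whether the chaperones responded.

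Hsp90b1, the chaperone GRP94, ran between 11.39 and 11.71 with a median of 11.55 in awake arrays, and between 11.15 and 11.64 with a median of 11.39 in exposed arrays. All 10 awake arrays lay above the exposed mean, and the difference was 0.16 (SE 0.0577), or 0.0656 without the isoflurane group. Calr, the calcium-binding chaperone calreticulin, averaged 11.75 ± 0.135 in awake and 11.57 ± 0.182 in exposed arrays (SD, n = 10 each), a difference of 0.18 (SE 0.0693). Hspa5, the chaperone BiP, averaged 11.27 ± 0.321 in awake and 11.04 ± 0.145 in exposed arrays, a difference of 0.24 (SE 0.0953). Its difference lay in the conditioning component, at 0.43, against 0.0382 in the pain component.

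The other 3 were Sdf2l1, a co-chaperone of BiP (0.19), Pdia3, a disulfide isomerase (0.17, with 0.0279 in its other probe set), and Sec61b, a subunit of the protein-conducting channel (0.31). Herpud1, which takes part in the degradation of misfolded proteins, was opposite at -0.36 (SE 0.152). Atf4 and Ddit3, transcription factors of the stress response, differed by 0.10 and 0.17, and Atf4 by 0.0497 without pain replicate 3 and by -0.014 without the pain group. Among cytosolic chaperones Cryab, a small heat shock protein of glia, differed by 0.33 (SE 0.112) and Hsp90ab1 by 0.27 (SE 0.109). The other probe set of Hsp90ab1 gave 0.0183, and without the pain group its difference of 0.27 was 0.0582. The cytosolic list had 15 of 22 probe sets higher, with a median of 0.0306 that was -0.0395 when arrays were centred on their medians.

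Glial markers were mostly higher in awake arrays by small amounts. Of 25 probe sets of oligodendrocyte and myelin markers 24 were higher, with a median of 0.135, and 20 were higher with a median of 0.0572 when arrays were centred on their medians. The median was 0.258 in the conditioning component and 0.0399 in the pain component. Mobp, a myelin protein, averaged 10.83 ± 0.343 in awake and 10.44 ± 0.373 in exposed arrays (SD, n = 10 each), a difference of 0.39 (SE 0.178), and its 2 other probe sets gave 0.0523 and 0.225. Bcas1, a marker of newly myelinating cells, differed by 0.30 (SE 0.134), or 0.11 without the isoflurane group, and both probe sets of Mbp, myelin basic protein, were higher, by 0.26 and 0.0459.

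Myelin genes share cells, so their probe sets are not independent. The mean over the list, centred on all arrays, was -0.061, 0.059, 0.196, -0.081 and -0.246 in pain arrays and -0.088, 0.333, 0.101, 0.22 and 0.486 in conditioning arrays. It was -0.008, -0.28, -0.099, 0.204 and -0.081 in isoflurane arrays and 0.072, -0.157, 0.191, -0.075 and -0.264 in arrays of conditioning under isoflurane. The groups overlapped, with conditioning replicate 5 highest of the 20 arrays. Without it the list median was 0.0805.

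Of 34 probe sets of astrocyte markers 31 were higher, with a median of 0.0699, and 21 were higher with a median of 0.0165 after median centring. Aqp4, the water channel of astrocyte endfeet, averaged 8.84 ± 0.438 in awake and 8.50 ± 0.232 in exposed arrays (SD, n = 10 each), a difference of 0.34 (SE 0.135), but its 2 other probe sets gave 0.0488 and 0.0702. Glul, glutamine synthetase, differed by 0.24 (SE 0.103), with 0.0588 and 0.101 in its 2 other probe sets. Gfap, the astrocyte filament protein, differed by 0.12 (SE 0.106), which was -0.00352 without the isoflurane group and 0.0617 without pain replicate 5. Of 23 probe sets of microglia and complement genes 20 were higher, with a median of 0.0948 and of 0.0392 after median centring. Laptm5, a lysosomal protein of microglia, differed by 0.26 (SE 0.124), and Csf1r, the receptor that keeps microglia alive, by 0.20 (SE 0.0965). The mean over the astrocyte list ran between -0.071 and 0.456 in awake and between -0.35 and 0.174 in exposed arrays, and that over the microglial list between -0.145 and 0.294 in awake and between -0.149 and 0.17 in exposed arrays. The astrocyte median was 0.0356 when conditioning replicate 2 was left out, and the microglial median 0.0598 when conditioning replicate 1 was.

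The lists of interneuron, projection neuron and striatal genes had more probe sets lower than higher in awake arrays, whereas that of hypothalamic and thalamic markers had 5 of 8 higher, with a median of 0.00765. Of 20 probe sets of interneuron and neuropeptide genes 6 were higher, with a median of -0.0682, and Adcyap1, the neuropeptide PACAP, differed by -0.53 (SE 0.232). Pvalb, the calcium buffer of fast-spiking interneurons, differed by -0.37 (SE 0.185). Of 15 probe sets of projection neuron markers 5 were higher, with a median of -0.0504. Of 20 striatal probe sets 7 were higher, with a median of -0.0446. With single arrays left out, the interneuron median lay between -0.113 without pain replicate 2 and -0.0371 without conditioning under isoflurane replicate 5. The projection neuron median lay between -0.115 without conditioning under isoflurane replicate 5 and -0.0173 without conditioning replicate 4, and the striatal median between -0.0925 without conditioning replicate 3 and -0.0108 without conditioning replicate 1. After median centring the medians of these 3 lists were -0.133, -0.103 and -0.0946 in that order. Drd1, the D1 dopamine receptor, averaged 8.55 ± 0.338 in awake and 8.91 ± 0.236 in exposed arrays (SD, n = 10 each), a difference of -0.36 (SE 0.142), and its other probe set gave -0.127. The mean over the interneuron list, centred on all arrays, ran between -0.633, in conditioning replicate 2, and 0.352 in awake and between -0.189 and 0.237 in exposed arrays, and that over the projection neuron list between -0.251 and 0.296 in awake and between -0.041 and 0.269 in exposed arrays. These glial and neuronal values stand beside every single-gene difference above, and their part in those differences was not tested.

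Markers of blood and meninges varied by array. Hbb, beta-globin, ran between 10.21 and 12.14 with a median of 11.15 in awake arrays, and between 10.66 and 12.16 with a median of 11.82 in exposed arrays. Its difference of -0.41 (SE 0.195) came with -0.97 in the pain component and 0.14 in the conditioning component. Ptgds, prostaglandin D synthase of the meninges, differed by 0.55 (SE 0.414), with the highest array at 13.57 among awake and 13.15 among exposed arrays. The Ptgds difference was 0.30 without the isoflurane group, 0.28 without the pain group and 0.30 without pain replicate 1.

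**Figure D5:**
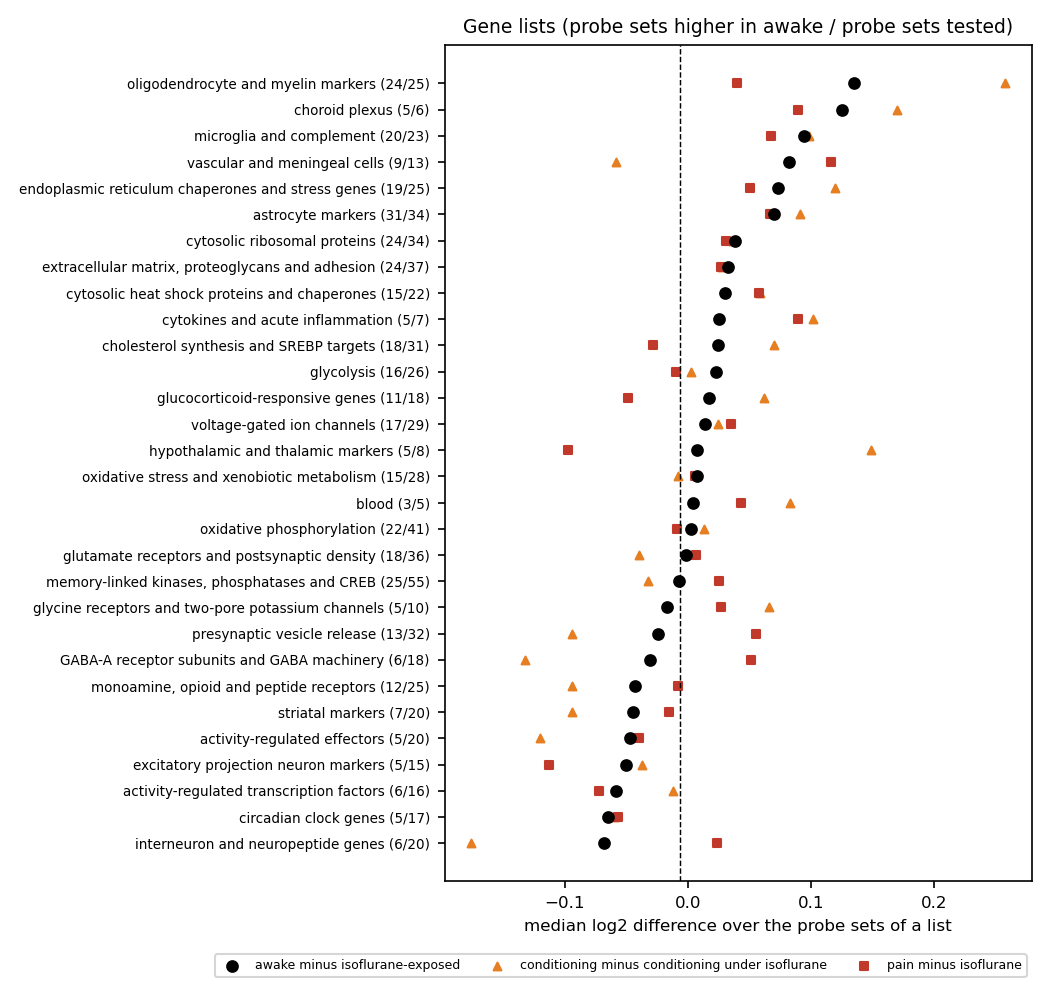
Median log2 difference over the probe sets of each of 30 gene lists (horizontal axis) for awake minus isoflurane-exposed (circles) and for both components, with the number of probe sets higher in awake arrays and the number tested beside each name; the dashed line is the median of all probe sets. The oligodendrocyte list lies highest at 0.135 and the interneuron list lowest at -0.0682.

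Of the other lists, oxidative phosphorylation had 22 of 41 probe sets higher, with a median of 0.00268, and glutamate receptors and the postsynaptic density 18 of 36, with a median of -0.00123. Memory-linked kinases, phosphatases and CREB had 25 of 55 higher, with a median of -0.00751. Mapk14, the stress kinase p38 alpha, differed by -0.19 (SE 0.0736), or -0.12 without the pain group. Cytosolic ribosomal proteins had 24 of 34 higher, with a median of 0.0387 that was -0.0458 when arrays were centred on their medians. Circadian clock genes had 5 of 17 higher, with a median of -0.0652, and Per2, a repressor of the clock, differed by -0.28 (SE 0.164). Without pain replicate 3 the median of that list was -0.00869 and the Per2 difference was -0.0896.

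Single members of other lists with low p were few. Sod3, the extracellular superoxide dismutase, averaged 9.04 ± 0.333 in awake and 8.71 ± 0.0995 in exposed arrays (SD, n = 10 each), a difference of 0.33 (SE 0.108), with all 10 awake arrays above the exposed mean. Kcnj3, an inwardly rectifying potassium channel opened by G proteins, differed by 0.49 (SE 0.179), with 0.109 in its other probe set. Kcnab1, a potassium channel beta subunit, differed by 0.36 (SE 0.133), or 0.17 without the pain group. Mmp2, a matrix metalloprotease, differed by 0.27 (SE 0.106), while L1cam and Opcml, adhesion proteins of neurons, differed by -0.23 and -0.24. The other probe sets of Mmp2 and Opcml gave 0.0376 and -0.0688. Each of these had an adjusted p of 0.875.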

How the data were processed

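The authors deposited 1 processed signal per probe set for each of 29 one-colour rat arrays. Per the file headers and values these deposited signals are linear intensity values that had been scaled, since the mean without the lowest and highest 2% ran from 500.08 to 500.12 over the arrays. What software did so is not given in the sources used here. The 57 control probe sets were left out of 15923. The remaining 15866 were quantile normalized, floored at 16 and put on the log2 scale. The 9520 with a mean of at least 7.261, the 40th percentile, were tested.

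Each was fitted with limma 3.58.1 in R 4.3.3 on all 29 arrays with 1 mean per group, with a variance trend, and Benjamini-Hochberg adjustment covered all 9520. SE and intervals come from that fit and SD from arrays. The number of arrays limits the precision. The code was tested on simulated data.

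Of 15866 probe sets, 12783 carry 1 gene symbol, 312 several and 2771 none, and 12748 matched GRCr8 genes by identifier. Genes named are, with 1 probe set per gene, the 12 higher and 12 lower of lowest p. To these come the genes at an unadjusted p under 0.05 with 1 sign in both components (at most 5 per direction). The 4 per direction of lowest p for the difference between components were added. Others were taken from the 3 of lowest p in each list and from a fixed panel. Not all of these are described, and Epb41, Slc2a3, Cplx2 and Slc1a3 are among those left out. Other genes named from the lists, and those just outside the 12, were chosen after their values were seen. The comparison, lists and tests were chosen with earlier results of these data known. Permutation tests used 100000 resamples. The alternatives were 2 other scalings, another floor, other filters, fewer arrays, no variance trend, a replicate block, and leaving out each array or a group.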

Additional observations from a re-analysis of the deposited data

Results flagged for a closer look

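In 4 of 108 sets of 4 to 10 arrays examined, 1 array lay farther from its neighbours than Dixon's test allows at the 95% level, where chance alone gives about 1 in 20. The median deposited signal of pain replicate 3 was 292.2, and the nearest pain array was at 244.1 (Dixon ratio 0.732). The GAPDH 3' over 5' ratio of conditioning under isoflurane replicate 3 was 1.40, against 1.24 in the nearest array of its group (ratio 0.749). Nfix in isoflurane replicate 3 was 5.74, with the other 4 arrays of the group between 8.22 and 8.59 (ratio 0.871). Insig1 in conditioning under isoflurane replicate 1 was 9.58, with the other 4 between 9.69 and 9.70 (ratio 0.941).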

How the results depend on the processing

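The pooled comparison had 0 probe sets past the adjusted threshold under all 30 alternatives, 20 of which left out 1 array each. With single arrays left out, the number at an unadjusted p under 0.05 ran between 327 without pain replicate 3 and 695 without pain replicate 4. Where the filter changed the number tested, it was 196 of 4760 above the 70th percentile and 871 of 15866 without a filter. Of the 488 in the main fit, 49.4% were higher in awake arrays. Of the 485 that met that p on the deposited scale, 61.9% were higher (300 higher, 185 lower). Of the 603 that met it with arrays centred on their medians, 20.9% were higher (126 higher, 477 lower). With that centring the median of all probe sets was -0.0585. Same-numbered replicates did not deviate together: over 30 pairs their correlations ran between -0.238 and 0.259, and 2 of 20 arrays correlated best with their own number. With a replicate block 0 probe sets were called and 526 met the unadjusted p.

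Leaving out single arrays gave between 0 and 1 probe sets for pain minus isoflurane and between 0 and 1 for the difference between components, in both cases Ppp1r18 without pain replicate 4 and, for the difference, Zfp644 without isoflurane replicate 1. Testing only above the 70th percentile gave 1 for the difference, Zfp644 (adjusted p = 0.0392), where fewer probe sets were tested. The 24 genes of lowest p kept their direction under every alternative that tested them, which their choice from the same arrays largely set in advance. Direction was reversed for Hbb without the pain group (0.0609), Fkbp5 without the pain group (-0.0426) and between -0.0022 and 0.0965 with single arrays left out, Nr4a1 without the isoflurane group (0.0847), and Klf9 with median centring (-0.0552) and between -0.0183 and 0.066 with single arrays left out. The cause was not tested. Signal over background limits rarer transcripts.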
